A study of Mus musculus with 2 samples.

Results

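Neutrophils were a small population in a tumour cell fraction that had been enriched for T cells. The fraction came from subcutaneous B16F10 tumours, a transplantable mouse melanoma line, at day 14 after injection, and cells carrying CD3 were selected on a magnetic separator following a Percoll step. Wild-type cells and cells labelled Nr4a KO (the series title names a deletion of Nr4a1 and Nr4a2) were pooled in 1 BD Rhapsody capture, a microwell method, whose mRNA and hashtag libraries are the 2 samples of the series. The labels list 6 hashtags and the genotype of none, and they give no age or sex of the mice, no number of mice, and no promoter or Cre line behind the deletion. With 1 capture there is no replicate, so no p-value is given and every interval covers counting error at most. The labels describe the cells as T cells enriched on CD3e, and no neutrophil gate was part of the preparation.

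A barcode was taken as a neutrophil when it met 4 conditions: at least 300 genes with at most 25% mitochondrial counts, at least 5 counts each of S100a8 and S100a9, at least 5 counts of at least 2 of 7 further genes (Retnlg, Lcn2, Slpi, G0s2, Hdc, Acod1 and Cxcl3), and under 5 counts of Csf1r and of Cd3e. This found 112 of 11339 passing barcodes, or 0.988% (exact binomial 95% interval 0.814 to 1.19%). A further 26 passing barcodes held S100a8 and S100a9 but fell outside the rule, 15 of them with Csf1r, 13 with Cd3e (5 with both) and 9 with under 2 further genes. Just inside lay 9 members with exactly 2 further genes and 6 members with 5 to 9 counts of S100a8 or S100a9, while 8 members held all 7 further genes. The median S100a8 count was 125.5 in the members and 84.5 in the 26 barcodes outside.

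Neutrophils are short-lived granulocytes made in the bone marrow under granulocyte colony-stimulating factor. They leave the blood toward chemoattractants that act on Cxcr2, on formyl peptide receptors and on the complement receptor C5ar1, and they carry antimicrobial proteins in granules that are filled in a fixed order during maturation, so that mature cells hold the proteins but little of the mRNA. S100A8 and S100A9 together form calprotectin, the main protein of their cytosol. In tumours they are known as a source of chemokines and interleukin 1.

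The members held 1226984 counts in all, with 4161 to 71445 per barcode (median 8920.5) and a median of 728.5 genes. These were smaller libraries than those of the groups used for comparison, which were set by marker genes: 680 barcodes of a macrophage or monocyte group (Csf1r with at least 2 of 8 macrophage genes, Lyz2 and the C1q genes among them; median 55685.5 counts), 4774 of a T cell group (Cd3e with another CD3 or T cell receptor gene; median 31670.5) and 1047 of a melanoma group (at least 4 of 5 pigment genes; median 159774.0). After each barcode was thinned to 5000 counts, neutrophils still showed the fewest genes, a median of 622.5 over 106 barcodes (6 shallower ones left out) against 1677, 1487 and 1952. Non-zero values in the members had a median of 4 counts and it is not known whether duplicate reads were collapsed, so the counts are not taken as independent molecules and a gene was called present at 5 counts. Levels are counts summed over the barcodes of a group and expressed as CPM (the count per 1000000 counts of the group), with exact Poisson 95% intervals. They are not corrected for gene length. The Poisson intervals treat counts as independent, so they are too narrow where duplicate reads remain, and they leave out the spread between barcodes.

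The limit on mitochondrial counts removed a larger share of neutrophils than of the other groups. Without it 172 barcodes met the rule, and 60 of them (34.9%) lay over 25%, against 1.31% of the macrophage or monocyte group, 0.396% of the T cell group and 10.7% of the melanoma group. Those 60 barcodes had a median of 63.3% mitochondrial counts. With mitochondrial genes left out of the total, Cxcl2 stood at 54233 CPM in them and at 59137 in the members, and Csf3r at 1015 and 1179. Some genes lay further apart: S100a9 at 25948 and 20064, Retnlg at 1658 and 2432, and the noncoding RNA Malat1 at 3186 and 1888.

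Markers of other cells were read in the members. The rule had already left out barcodes with Csf1r or Cd3e. Some of the macrophage, T cell and melanoma markers also set the groups used for comparison, so the distance between these sums is partly fixed by the choice of barcodes. The 6 B or plasma cell genes, the 7 basophil or mast cell genes and the 6 erythroid or platelet genes of the lists had 0 counts each. The 12 macrophage markers summed to 379 CPM, with Mrc1 and Mertk at 0, against 17214 in the macrophage or monocyte group and 299 in T cells. The 10 T cell markers summed to 615 CPM against 5883 in T cells, and the 8 melanoma markers to 2448 CPM against 1799 in macrophages and 1692 in T cells, with none of either list at 0. The deepest member, with 71445 counts, held 77.3% of the melanoma marker counts, and without it their sum was 591 CPM. In all, 22 members held at least 5 counts of Trac, Trbc2, Cd8a, Pmel or Mlana, 5 had over 3 times the median depth, and no doublet caller was run. Over the whole lists, 52 members held at least 5 counts of any of the 30 T cell, macrophage and melanoma markers, and 42 held at least 5 melanoma marker counts in sum. The comparison with macrophages described below called 245 genes higher and 1760 lower with all members, 240 and 2026 without the 22, and 206 and 1617 without the 52. These were partly other genes: of the 245 and 1760, 207 and 1264 were called again without the 22, and 167 and 909 without the 52. Beyond leaving these members out, the part of other cells' RNA in single genes was not tested.

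The genes that chose the cells are a description only. S100a8 stood at 15103 CPM (lowest, median and highest barcode 425, 14181 and 71808 CPM) and S100a9 at 18620.5 CPM (509.7, 18210.5 and 75057 CPM), with 24.2 and 19.6 CPM in the macrophage or monocyte group. Of the further genes, Acod1, which makes itaconate, was present in 106 members and Hdc, the histamine-forming enzyme, in 88. Slpi, an inhibitor of elastase, was present in 70, G0s2, a lipase inhibitor, in 69, Cxcl3, a Cxcr2 ligand, in 60, Lcn2, which binds bacterial iron carriers, in 56 and Retnlg, a resistin-like secreted protein, in 41. The rule required S100a8 and S100a9 in every member and any 2 of the others, so this pattern follows from the choice.

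**Figure D1:**
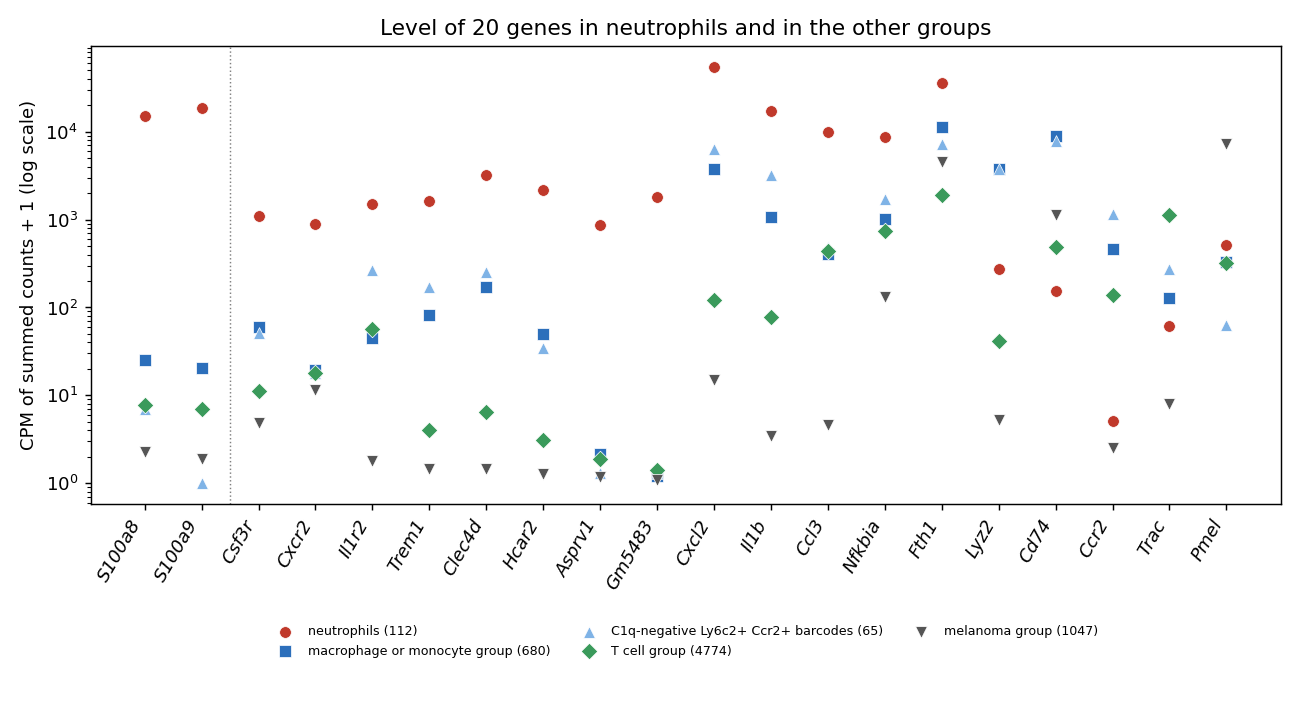
Level of 20 genes (CPM of summed counts plus 1, log axis) in neutrophils, the macrophage or monocyte group, C1q-negative Ly6c2- and Ccr2-positive barcodes, the T cell group and the melanoma group. S100a8 and S100a9, left of the dotted line, were part of the rule; Cxcl2 stands at 54883 CPM in neutrophils and 3734 in the macrophage or monocyte group, and Cd74 at 154 and 8902.

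Genes of neutrophil identity that the rule did not use were then compared with the macrophage or monocyte group, the nearest large myeloid group of the capture. Ratios are of CPM after 5 counts were added to each sum. A call needed a 4-fold ratio and 100 summed counts on the higher side, so a list has one denominator for genes that could be called higher and another for those that could be called lower. Over all genes 245 of 1461 were higher (16.8%) and 1760 of 6929 lower (25.4%), with a median log2 ratio of -1.0 over the 7005 examined. Of 29 identity genes 20 were higher, none was lower, 5 were examined without a call and 4 had too few counts in both groups. Of the 25 examined, 8 had enough counts in neutrophils only and could be called in no direction but higher; of the 17 that could be called either way, 12 were higher. The counts and the median of 4.32 over the 25 are thus partly set by the minimum of counts and describe the list only. A call described below as against macrophages only was short of 4-fold against a second, smaller reference nearer to monocytes, which is described further on.

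Csf3r, the receptor for granulocyte colony-stimulating factor, stood at 1094 CPM (1036 to 1154) with 58.3 in macrophages, 18.8-fold higher. It was present in 67 of 112 members (lowest, median and highest barcode 0, 809 and 7559 CPM) and in 1.3% of the deeper T cell group. Cxcr2, the receptor for Cxcl2 and related chemokines, stood at 891 CPM (839 to 945) with 18.3, 48.6-fold higher, in 54 members and 4.27% of T cells. Of the members, 41 held both receptors, 13 Cxcr2 alone, 26 Csf3r alone and 32 neither at this depth. Il1r2, a decoy receptor that binds interleukin 1 without signalling, was at 1513 CPM in 66 members, 34.1-fold higher. Trem1, an amplifying receptor of myeloid cells, was at 1642 CPM in 68 members, 20-fold higher.

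Other identity genes were read in more members. Clec4d, a lectin receptor, was at 3228 CPM in 101 members (0, 3029 and 14538 CPM in the lowest, median and highest), 19-fold higher, and in 0.838% of T cells. Clec4e (Mincle), which senses mycobacterial glycolipid, was at 3278 CPM in 94 members, 15-fold higher. Hcar2, the receptor for nicotinic acid and ketone bodies, was at 2168 CPM in 91 members, 43.8-fold higher. Narrower were Asprv1, an aspartic protease, with 856 CPM in 36 members against 1.14, and Mmp9, the gelatinase of tertiary granules, with 282 CPM in 20 members against 0.189. Gm5483, a stefin, a type of cysteine protease inhibitor, was at 1805 CPM in 48 members and the related Stfa2l1 at 412 in 31, and 25 members held both. The stefins are near-identical copies, so the division of reads between them is uncertain. Ly6g, whose product is the usual antibody target on mouse neutrophils, gave 8 counts, all in 1 member.

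**Figure D2:**
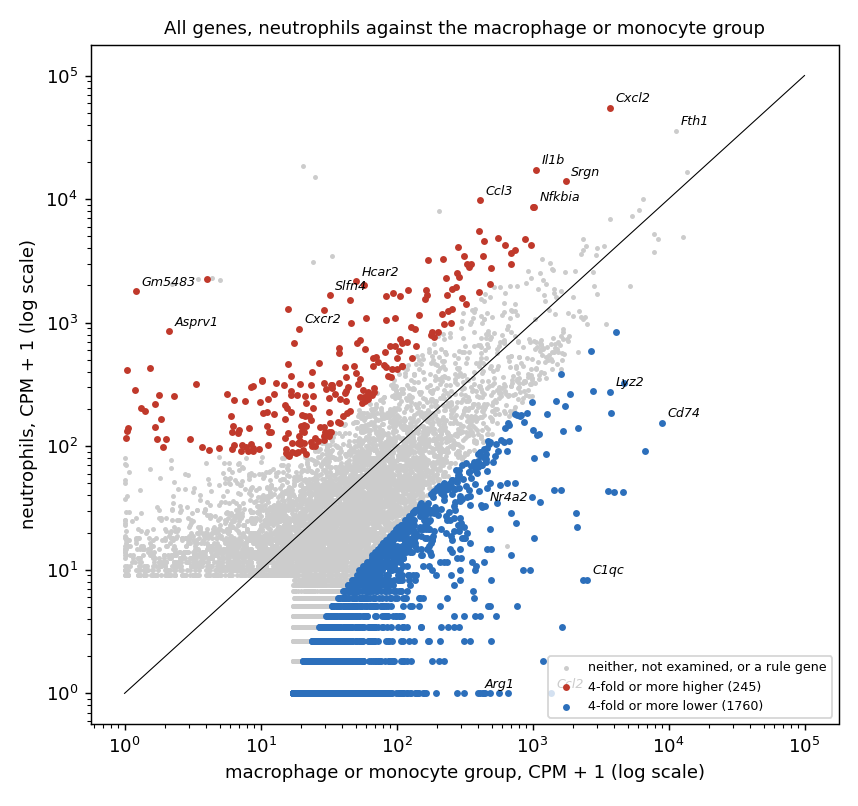
CPM of genes in neutrophils (y axis) against the macrophage or monocyte group (x axis), both log axes, with the line of equality. The 245 genes called higher include Cxcl2, Il1b, Ccl3 and Nfkbia at the top of the range, and the 1760 called lower include Cd74, Lyz2, Arg1 and Ccl2.

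Secreted mediators of inflammation were prominent among the mRNA. Cxcl2, a chemokine that draws further neutrophils through Cxcr2, was the gene with the most counts in 58 of the 112 barcodes, followed by Fth1, the ferritin heavy chain, in 31 and S100a9 in 9. Cxcl2 took 5.49% of all counts of the members and between 0.175% and 21.4% in single barcodes (median 5.07%). The lowest share was that of the deepest member, which held most of the melanoma marker counts. The 10 leading genes took 20.1% of counts, against 9.0% for the 10 leading genes of the macrophage or monocyte group. Cxcl2 stood at 54883 CPM (54469.6 to 55299.5), was present in all 112 members, and was 14.7-fold higher than in macrophages (3734 CPM). CPM is a share of a smaller total here: on mean counts per barcode, with no scaling, Cxcl2 was at 601 against 261. A neutrophil barcode held 10955 counts on average and one of the macrophage or monocyte group 69940.0, so a ratio by CPM is 6.38 times the ratio of mean counts per barcode. Of the 245 genes called higher, 166 were also higher on that scale and 42 by 4-fold or more. Each of the 1760 called lower was lower there too, an outcome that the factor fixed in advance. Of the 75 genes of the function lists called higher, 18 had fewer counts per barcode than macrophages, those with a ratio by CPM under about the same factor. The ones named below are C5ar1, Cebpb, Clec7a, Egr1, Fpr2, Lilrb4a, Osm, Pfkfb3, Slc16a3, Tnf and Tnfaip3.

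The promoters of Cxcl2, of Nfkbia, which encodes the inhibitor of NF-kappaB, and of Il1b are shown because these genes were among the 10 with the most counts in the members and are textbook targets of NF-kappaB. The sequences are from RefSeq (GRCm38.p6), 5′ to 3′ on the strand of the gene, and stop before the earliest annotated transcript start. Cxcl2 is read from chr5:90903649-90903870 on the plus strand, Nfkbia from chr12:55492648-55492897 on the minus strand and Il1b from chr2:129371165-129371389 on the minus strand. Capitals mark matches on either strand to a form of the NF-kappaB motif, GGG and TTCC with any 3 bases between them.
Cxcl2: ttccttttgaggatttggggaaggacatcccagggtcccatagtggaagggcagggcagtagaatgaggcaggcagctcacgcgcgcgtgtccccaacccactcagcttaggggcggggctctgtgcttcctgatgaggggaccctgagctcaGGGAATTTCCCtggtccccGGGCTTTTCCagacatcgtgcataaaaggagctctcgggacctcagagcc
Nfkbia: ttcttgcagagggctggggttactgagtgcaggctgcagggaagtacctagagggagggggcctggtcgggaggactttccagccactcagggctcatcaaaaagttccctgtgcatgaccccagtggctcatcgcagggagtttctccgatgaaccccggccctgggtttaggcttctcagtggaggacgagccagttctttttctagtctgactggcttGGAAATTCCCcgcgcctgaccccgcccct
Il1b: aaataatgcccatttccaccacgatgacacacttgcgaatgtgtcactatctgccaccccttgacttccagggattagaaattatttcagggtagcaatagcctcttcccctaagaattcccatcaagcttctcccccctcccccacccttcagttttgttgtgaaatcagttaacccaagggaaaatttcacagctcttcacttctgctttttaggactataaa
Cxcl2 held 3 matches, at 97 to 88 bases before the RefSeq start, at 96 to 87 on the other strand (overlapping the first), and at 78 to 69. Nfkbia held 1, at 29 to 20 bases before the start, and Il1b none in this window. Each promoter was searched over the 250 bases before the RefSeq start, of which the first 222 are printed for Cxcl2 and the first 225 for Il1b, and the unprinted bases held no match. Of 32851 RefSeq promoters searched over 250 bases, 4.65% held a match. TTNNGCAA, a form of the motif of C/EBP factors, and GAGGAAG, a form of that of PU.1, were searched on both strands as well. They are held by 9.56% and 10.6% of promoters and had no match in these 3. A match describes letters in a window and not binding.

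Of 28 chemokine and cytokine genes 24 were examined, with a median log2 ratio of 1.10. Of those that could be called, 11 of 18 were higher and 6 of 21 lower, beside 16.8% and 25.4% of all genes. Il1b, the secreted form of interleukin 1, stood at 17335 CPM (17103 to 17569.7) in 109 members (0, 16848 and 76473 CPM in the lowest, median and highest) against 1060.2 in macrophages, 16.4-fold higher. Its relative Il1a was at 1089 CPM in 40 members, 11.4-fold higher, and the receptor antagonist Il1rn, which blocks both, at 4077 CPM in 84 members, 14.4-fold higher. Il1f9 (interleukin 36 gamma), which is on no list and was named for its ratio, was at 2253 CPM in 68 members against 3.05.

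Ccl3 and Ccl4, chemokines that draw leukocytes, differed in how widely they were read. Ccl3 stood at 9805 CPM (9631 to 9982) in 95 members (0, 6465 and 65664 CPM), 24.1-fold higher than in macrophages. Ccl4 stood at 8579 CPM (8416 to 8744) in 71 members (0, 2422 and 80753 CPM), 8.58-fold higher by CPM and 94 against 69.9 in mean counts per barcode. Both were present in 67 members, Ccl3 alone in 28 and Ccl4 alone in 4. Their RefSeq spans overlap (chr11:83647843-83649378 and chr11:83648624-83664683, GRCm38.p6), and no source used here says whether the counting used strand, so reads in the overlap cannot be assigned with certainty. T cells held both as well, at 436 and 437 CPM.

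Of the less abundant ligands, Osm (oncostatin M) was at 422 CPM in 26 members, Csf1, the growth factor of macrophages, at 366 in 24, Tnfsf14 (LIGHT) at 189 in 16 and Il23a, a subunit of interleukin 23, at 113 in 9, each 4-fold or more higher than in macrophages, Osm against macrophages only. Tnf was at 995 CPM in 41 members, 4.01-fold higher against macrophages only, and lower on mean counts per barcode, 10.9 against 17.4.

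Several chemokines of macrophages were low. Ccl2, which draws monocytes, had 0 counts in the members, which allows up to 2.45 CPM by a floor of 3 counts over the group, against 1365 CPM, at least 558-fold lower. Ccl7 and Ccl8, its neighbours on chromosome 11, had 1 and 3 counts (0.0206 to 4.54 and 0.504 to 7.15 CPM) against 1202 and 1637 CPM. Cxcl9, a ligand of Cxcr3 induced by interferon gamma, was at 43.2 CPM, 92.5% of it in 1 member, with 1431 in macrophages. The related Cxcl10 was at 719.7 CPM in 21 members and 614 in macrophages. Of these 5 chemokines, Cxcl10 was near in both groups and the other 4 were lower in the members. For Ccl8 this depended on the reference: the barcodes nearest to monocytes held 3.32 CPM, a log2 ratio of 0.44.

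**Figure D3:**
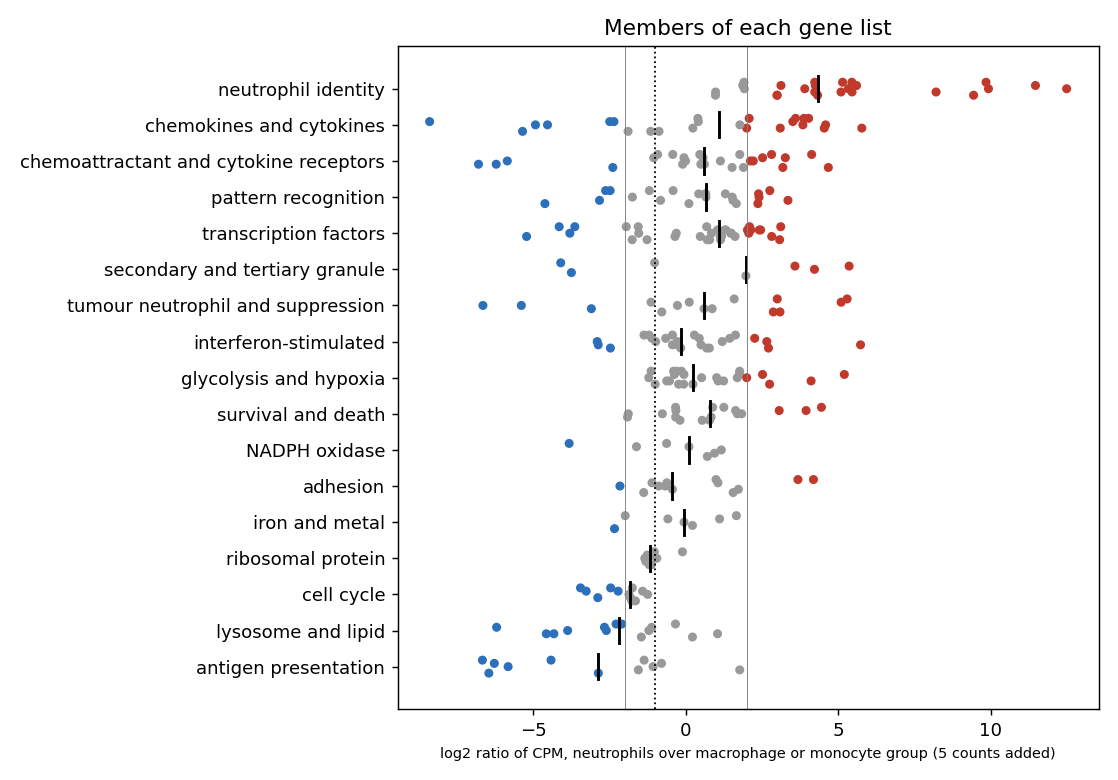
Log2 ratio of CPM (neutrophils over the macrophage or monocyte group) of each examined gene of the function lists, with the list medians as bars, the median of all genes as a dotted line and thin lines at 4-fold; points called higher, lower and neither have different colours. Identity genes have a median of 4.32, chemokines and cytokines of 1.10, lysosome and lipid genes of -2.19 and antigen presentation genes of -2.86, with -1.0 over all genes.

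Among 26 chemoattractant and cytokine receptors, each examined, 8 of 20 were higher and 4 of 25 lower (median log2 ratio 0.59), beside 16.8% and 25.4% of all genes. On the high side were the receptors for bacterial peptides and complement, Fpr1 (398 CPM in 27 members, 17.5-fold), Fpr2 (592 CPM in 39, 5.75-fold) and C5ar1 (967 CPM in 53, 4.36-fold). So were Ccr1, a receptor for Ccl3 (1544 CPM in 78 members, 9.63-fold), and Ccrl2, which binds chemerin without signalling (2524 CPM in 78, 9.1-fold). The members also held Il1rap, the shared subunit of the interleukin 1 receptor, at 228 CPM, 25.6-fold higher. The monocyte receptor Ccr2 was at 4.08 CPM with 468 in macrophages. Cxcr4, which holds neutrophils in the marrow, was at 185 CPM in 18 members, 3.42-fold higher and short of a call. The interferon receptor genes Ifngr1, Ifngr2, Ifnar1 and Ifnar2 were each within 1.34-fold of macrophages by CPM. In barcodes thinned to equal depth, each was read in a smaller share of neutrophils than of the macrophage or monocyte group. The shares were 9.43% and 54.2% for Ifngr1, and 12.3% and 34.3% for Ifngr2. For Ifnar1 they were 17.9% and 37.8%, and for Ifnar2 12.3% and 40.4%.

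Of 22 pattern recognition genes examined, 5 of 16 were higher and 4 of 22 lower (median 0.65), beside 16.8% and 25.4% of all genes. Cd14, the co-receptor for endotoxin, stood at 4269 CPM in 94 members, 6.77-fold higher by CPM and 46.8 against 44.1 in mean counts per barcode. Nlrp3, the sensor of the inflammasome that matures interleukin 1, was at 1686 CPM in 68 members, 10.2-fold higher. Its adaptor Pycard (ASC) and its protease Casp1 were lower, at 10.6 and 16.3 CPM against 358 and 125, and reached 5 counts in 2 and 1 members. Clec7a (Dectin-1), a receptor for fungal glucan, was 5.3-fold higher and Lilrb4a, an inhibitory receptor, 5.25-fold higher, both against macrophages only. Lilrb4a has a close copy, Lilr4b, with which it may share reads.

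Of 34 transcription factor and signalling genes examined, 9 of 26 were higher and 4 of 34 lower (median 1.09), beside 16.8% and 25.4% of all genes. Nfkbia, whose promoter is shown above, stood at 8676 CPM (8512 to 8842) in 110 members (0, 7582 and 48681 CPM), 8.46-fold higher by CPM and 95 against 71.7 in mean counts per barcode. Nfkbiz, a nuclear regulator of NF-kappaB, was at 4863 CPM in 95 members, 8.68-fold higher by CPM and 53.3 against 39.2 per barcode. Tnfaip3 (A20), which shuts the pathway off, was at 1408 CPM in 61, 4.4-fold higher against macrophages only. The NF-kappaB subunits Nfkb1, Nfkb2, Rela and Relb were at 148, 124, 116 and 61.9 CPM, with log2 ratios from 0.69 to 1.18. Cebpb, a factor of emergency granulopoiesis, was at 760.4 CPM in 63 members, 4.07-fold higher against macrophages only, while Cebpe and Gfi1, which act in granulocyte precursors, had 0 counts. Egr1, an immediate early gene, was 4.27-fold higher by CPM and lower in mean counts per barcode, 32.5 against 48.6. Irf8, Klf4 and Maf, factors of monocytes and macrophages, were lower, at 15.5, 49.7 and 5.71 CPM.

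The Nr4a genes, nuclear receptors induced by activation and the subject of the series, were measured as well. Nr4a1 was at 489 CPM (451 to 529.7) in 28 members, with 223 in macrophages and 229.9 in T cells. Nr4a3 was at 248 CPM (221 to 277) in 21 members, with 101 and 211. Nr4a2 was at 31.8 CPM (22.6 to 43.5) in 3 members, with 444 and 1151, 12.4-fold lower than in macrophages. The values mix both genotypes, which cannot be told apart here.

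Granule genes are given in the order in which the granules form. Mpo, Prtn3, Ctsg and Bpi, whose proteins fill the primary granules of promyelocytes, had 0 counts. The secondary granule genes Ltf, Camp and Ngp had 8, 4 and 11 counts. Of 14 secondary and tertiary granule genes 7 were examined, 3 of 5 were higher and 2 of 5 lower (median 1.97), beside 16.8% and 25.4% of all genes. The collagenase Mmp8 (90.5 CPM in 5 members, against macrophages only), Pglyrp1, which binds peptidoglycan (188 CPM), and Arg2 were higher. Arg2, an arginase, was counted with this list but is not read here as a granule gene. Chil3, a chitinase-like protein, was lower, at 2.45 CPM with 111. Arg2 was at 683 CPM in 48 members, 41-fold higher, whereas the other arginase, Arg1, had 0 counts and was at least 166-fold lower than in macrophages. Lyz2, lysozyme, the other gene called lower, was at 275 CPM with 3739.7, but it was among the genes that set the macrophage group. Of the NADPH oxidase, which makes superoxide, the membrane subunit Cybb was at 85.6 CPM with 1263, 14.1-fold lower, and the cytosolic subunit Ncf1 at 293 with 132.

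Antigen presentation genes lay to the low side against both references. Of 11 genes, none of 4 were higher and 6 of 11 lower than in macrophages, beside 16.8% and 25.4% of all genes. The median was -2.86, and -3.67 against the barcodes nearest to monocytes. The class II genes H2-Aa and H2-Ab1 were at 41.6 and 41.6 CPM, with 4609.6 and 3982 in macrophages, and their invariant chain Cd74 at 154 CPM with 8902. Class I was nearer: B2m, its light chain, stood at 3725 CPM with 7803, a log2 ratio of -1.07, near the median of all genes. Of 14 lysosome and lipid genes, none of 12 were higher and 8 of 14 lower than in macrophages (median -2.19), beside the same shares. Against the barcodes nearest to monocytes 2 of 12 were higher and 5 of 14 lower, beside 14.6% and 25.4% of all genes. The median there was -1.20 beside -1.11 over all genes. The 2 higher were Gpnmb, which is also one of the melanoma markers, and Cd63, and the part of melanoma RNA in them was not tested. Lower against both were Ctss, which trims the invariant chain (185 with 3768 CPM in macrophages), and Psap, the precursor of the saposins (321 with 4738 CPM). All 10 ribosomal protein genes had log2 ratios between -1.34 and -0.10 (median -1.15). Of 12 cell cycle genes 5 were lower, beside 25.4% of all genes, and 1 alone had enough counts to be called higher.

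Of 15 examined genes linked to tumour neutrophils and suppression, 5 of 12 were higher and 3 of 13 lower (median 0.61), beside 16.8% and 25.4% of all genes. Ptgs2, the inducible cyclooxygenase, stood at 3007 CPM (2911 to 3106) in 59 members (0, 956 and 31089.9 CPM), 8.53-fold higher by CPM and 32.9 against 24.7 in mean counts per barcode. Thbs1, an inhibitor of vessel growth, was at 3463 CPM in 63 members, 8.02-fold higher by CPM and 37.9 against 30.2 per barcode, and Olr1, a receptor for oxidised lipoprotein, at 304.8 CPM in 20, 39.2-fold higher. Cd274 (PD-L1) was at 899 CPM in 45 members with 299 in macrophages, 3.02-fold higher and short of a call. Siglecf, a mark of a subset of tumour neutrophils, was present in 2 of 112 members, 1.79% (0.217 to 6.30%), and in 0.984% of T cells at a median depth of 31670.5 against 8920.5 counts.

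Of 25 interferon-stimulated genes examined, 4 of 17 were higher and 3 of 25 lower (median -0.16). Over all genes the shares were 16.8% and 25.4%. Slfn4, a Schlafen gene of myeloid cells, stood at 1669 CPM in 71 members, 53.2-fold higher. Rsad2 (viperin, antiviral) was at 883 CPM in 23 members, 6.57-fold higher against macrophages only, with 85 members at 0 and the highest at 15223 CPM. Isg15, a ubiquitin-like modifier, was present in 30 members, 15 of which also held Rsad2. Bst2 (tetherin, antiviral) was at 35 CPM with 291, 7.44-fold lower.

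Of 25 glycolysis and hypoxia genes examined, 5 of 22 were higher and none of 24 lower (median 0.24), beside 16.8% and 25.4% of all genes. Those higher were Slc2a3, a glucose transporter (343 CPM in 19 members, 36.8-fold), Slc16a3, which exports lactate (5.74-fold, against macrophages only), Egln3, an oxygen-dependent hydroxylase induced in hypoxia (319 CPM in 23, 17.3-fold), Hilpda, which blocks lipolysis (6.74-fold), and Pfkfb3, which speeds glycolysis (4.01-fold, against macrophages only). The glycolytic enzymes Gapdh and Ldha were near macrophages, at 1616 and 703 CPM with 1977 and 776. Of 18 survival and death genes examined, 3 of 11 were higher and none of 17 lower (median 0.81), beside the same shares of all genes. The higher ones were Fas, a death receptor, and the stress genes Gadd45a and Gadd45b. Mcl1, on which neutrophil survival depends, was at 2301 CPM in 93 members, 2.38-fold higher by CPM and lower in mean counts per barcode, 25.2 against 67.7. Fth1, at 35710.3 CPM in all members (1543, 36471 and 99131 CPM), was 3.17-fold higher by CPM and also lower per barcode, 391 against 788. Among 13 adhesion genes, Cd9, a tetraspanin, was at 1053 CPM in 66 members, 12.8-fold higher, and the integrin Itgb1 was 4.44-fold lower.

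The 10 highest ratios among genes present in at least 20% of members were, in order, those of Gm5483, Stfa2l1, Il1f9, Asprv1, Mrgpra2b, Wfdc21, Cd24a, Ghrh, Slfn4 and Cxcr2. Mrgpra2b, a Mas-related receptor with near copies, was at 430.3 CPM in 25 members, Wfdc21, a small whey acidic protein, at 257 in 25 and Cd24a, a surface glycoprotein, at 1299.9 in 57. Ghrh, the gene of growth hormone-releasing hormone, was at 262 CPM in 23 members with 4.69 in macrophages. Among the 10 lowest were Ccl2, Ccl8, Ccl7, C1qc, C1qa, Aif1, Mrc1, Pf4 and Pld4, of which C1qa and C1qc, subunits of complement C1q, helped to set the macrophage group. The actin-binding Aif1, the mannose receptor Mrc1, the chemokine Pf4 and the exonuclease Pld4 had 0 counts and were at least 271-, 230.0-, 199- and 177-fold lower.

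A second reference was the 65 barcodes nearest to monocytes, those with Csf1r, Ly6c2 and Ccr2 and without C1qa, C1qb and C1qc, chosen after the data were seen; 49 of them also belong to the macrophage or monocyte group. Against them 214 of 1461 genes were higher (14.6%) and 1234 of 4857 lower (25.4%). Of the genes higher against macrophages 192 were higher here too, 78.4% of the 245 and 89.7% of the 214, and none was lower. The lower side was shared less: of the 1760 genes lower against macrophages 987 were lower here too, and 52 had a log2 ratio above 0. The identity list again had 20 of 25 higher. All 5 melanoma markers that could be called higher were so here, and none was against macrophages. Their list had a median log2 ratio of 3.01 over the 6 examined, and 77.3% of its counts in the members lay in 1 member. Cxcl2 was 8.7-fold higher (6305 CPM in these barcodes), Il1b 5.34-fold (3247 CPM) and Ccl3 20.2-fold (484 CPM). The other 53 of the 245 were short of a call here, and so were 16 of the 75 function list genes called higher. Those named in the text were Rsad2 (2.22-fold), Tnf (1.91-fold), Slc16a3 (2.55-fold), Clec7a (2.85-fold), Tnfaip3 (2.93-fold), Cebpb (3.33-fold), Osm (3.34-fold), Mmp8 (3.37-fold), Lilrb4a (3.38-fold) and Pfkfb3 (3.56-fold). The references share those barcodes and are set against the same neutrophils, so the counts are not independent.

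**Figure D4:**
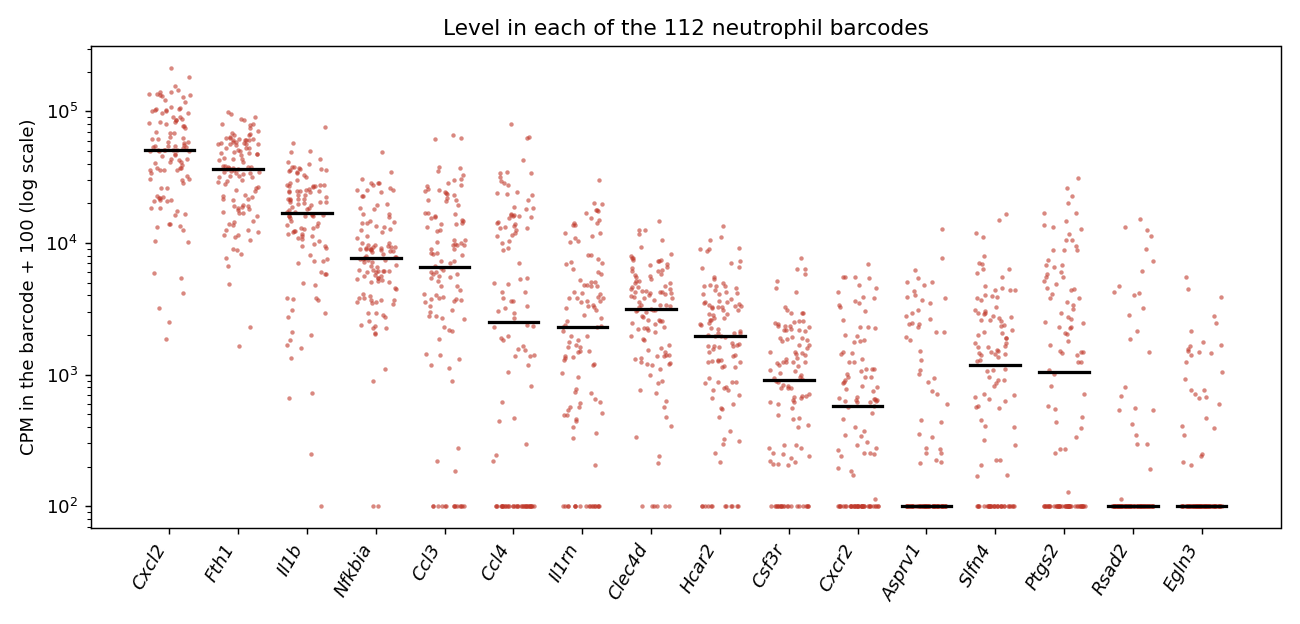
CPM (log axis, 100 added) of 16 genes in each of the 112 neutrophil barcodes; each point is 1 barcode, the bar is the median and points at 100 have no count. Cxcl2 and Fth1 were present in every barcode, while Rsad2 and Egln3 were present in 23 each and at or near 0 in the others.

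The members differed among themselves. Cxcl2, Fth1 and Srgn, the proteoglycan core of granules, were present in all 112, Nfkbia in 110 and Il1b in 109, whereas Rsad2 and Egln3 were each present in 23. Across the 112 barcodes, log2(CPM + 100) of Ccl3 went with that of Ccl4 (Pearson r 0.51, Spearman rho 0.50) and of Cxcl2 (0.49 and 0.53), and Cxcl2 less closely with Il1b (0.32 and 0.30). S100a8 and S100a9, which chose the cells, had an r of 0.81, and S100a9 with Cxcl2 an r of -0.04. These barcodes share 1 library, differ in depth and their values are parts of the same totals, so the coefficients are a description.

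The members were split at 5 counts of Cxcl3, a gene of the rule, into 60 positive and 52 negative barcodes with median depths of 8765 and 9399.5 counts. Of 825 genes that could be called higher in the positive arm 22 were (2.67%), and of 813 that could be called lower 19 were (2.34%). Of these calls 3 genes were present in at least 20% of the barcodes of the higher arm. Egln3 was present in 21 of 60 positive barcodes (35.0%, 23.1 to 48.4%) and 2 of 52 negative ones (3.85%, 0.469 to 13.2%), at 575 and 51.8 CPM. Bcl2l1 (Bcl-xL), which protects from cell death, was present in 12 of 60 (20%, 10.8 to 32.3%) and 3 of 52 (5.77%, 1.21 to 15.9%), at 207 and 45.1 CPM, a log2 ratio of 2.01 where a call needed 2. Ucp2, a mitochondrial carrier, was lower, in 3 of 60 (5%, 1.04 to 13.9%) and 11 of 52 (21.2%, 11.1 to 34.7%), at 57.3 and 297 CPM. The intervals of the shares overlap for Bcl2l1 and Ucp2 and not for Egln3. All 3 genes were picked by their ratios in this same split, so the intervals describe these barcodes and give no support. Under some alternatives Bcl2l1 and Ucp2 were short of a call. The most abundant mediators were near in both arms, with Cxcl2 at 60557 and 48933 CPM and Il1b at 17512 and 17149.7. Among the other calls, the melanoma genes Pmel, Dct and Mlana had 91%, 86.4% and 79.5% of their counts in the negative arm in 1 barcode, and the T cell genes Cd3d and Trbc2, higher in the positive arm, had 58.2% and 44.4% of their counts there in 1 barcode. Without the 52 members holding any marker of other cells the calls became 11 higher and 12 lower.

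A split by Retnlg, also a gene of the rule, gave 41 positive and 71 negative barcodes, with 19 of 732 genes higher (2.6%) and 27 of 899 lower (3%). Of the 19 higher, 5 were the melanoma genes Pmel, Mlana, Dct, Tyrp1 and Gpnmb, each with 88% or more of its counts in the positive arm in 1 barcode. Atp1b3, a subunit of the sodium pump, and Arid5b, a DNA-binding protein, passed the 20% share. Both were lower in the Retnlg-positive arm, at 59.7 with 380.5 CPM and 91.5 with 411 CPM. Of the members 22 held both Cxcl3 and Retnlg, 38 Cxcl3 alone, 19 Retnlg alone and 33 neither.

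Hashtag counts let 62 of the 112 members (55.4%) be assigned to a hashtag, against 50.4% of T cells and 83.7% of macrophages, with a median of 10.5 hashtag counts per member. The shares that follow are of the passing barcodes assigned to each hashtag. Neutrophils were 15 of 416 for A0302 (3.61%, 2.03 to 5.88%), 13 of 602 for A0304 (2.16%, 1.15 to 3.66%) and 16 of 1414 for A0306 (1.13%, 0.648 to 1.83%). They were 9 of 1192 for A0305 (0.755%, 0.346 to 1.43%), 9 of 2161 for A0301 (0.416%, 0.191 to 0.789%) and 0 of 655 for A0303, which allows up to 0.562%. Neighbours in this order have overlapping intervals, while those of A0302 and A0301 do not overlap. The genotype behind each hashtag is not given and none has a replicate, so mouse, staining and genotype cannot be told apart.

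**Figure D5:**
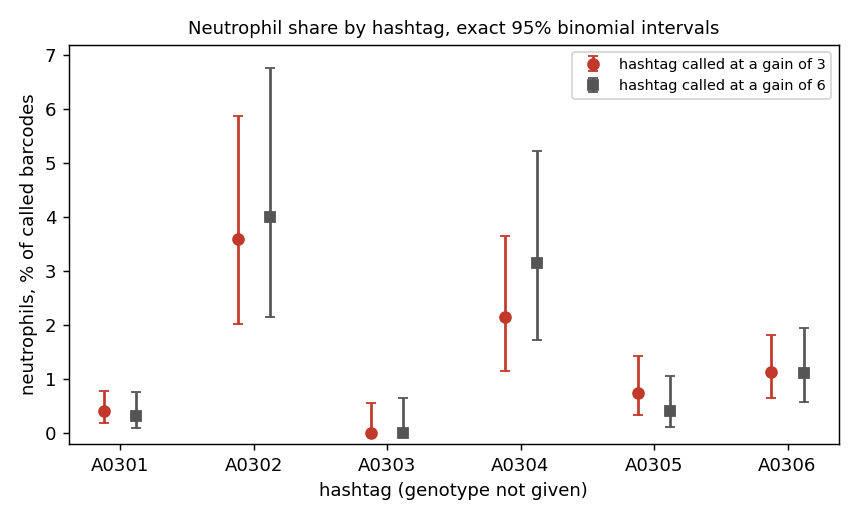
Neutrophils as a percent of the barcodes assigned to each of 6 hashtags, with exact 95% binomial intervals, under 2 settings of the log-likelihood gain needed for an assignment (3 and 6). A0302 is highest, at 3.61% and 4.01%, and A0303 is at 0 under both.

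Within the hashtags that had members, Cxcl2 stood at 71783 CPM in the 9 members of A0301, 51464 in the 15 of A0302, 72573 in the 13 of A0304, 27097 in the 9 of A0305 and 46907 in the 16 of A0306. Il1b ran from 8072 CPM in A0305 to 21943 in A0304, and Ccl4 from 3962 to 24544 in the same hashtags. One barcode, the member with 71445 counts and most of the melanoma marker counts, held 50.2% of the counts of A0305. Without the members over 3 times the median depth, Cxcl2 was at 71783, 69517, 65625, 52641 and 53273 CPM in the same order of hashtags. In A0305 Il1b was then at 15643 CPM and Ccl4 at 7955. Of Cxcl2, Il1b and Ccl4, A0305 was then lowest in Cxcl2 alone, close to A0306. Of the other genes read by hashtag, it stayed lowest in Nfkbia, Ptgs2, Cd274 and Rsad2, at 6319, 733, 155 and 0 CPM. The cause of these differences was not tested. A0304 stayed highest in Il1b and Ccl4, at 22278 and 27250.1 CPM, and not in Cxcl2. Rsad2 was at 2082 CPM in A0302, present in 6 of its 15 members, and at 819 CPM in A0304, the next highest. Egln3 had 0 counts in the 13 members of A0304 and was present in 6 of the 15 of A0302. Each of these values rests on 9 to 16 barcodes.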

How the data were processed

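The authors deposited a table of counts of 27635 genes in 12016 barcodes for the mRNA library and a table of hashtag counts; neither is normalized, per the file headers and values. The submitters' processing notes name cutadapt 2.10, Bowtie2 2.3.4.1 and 2.4.2, R 3.5.3 and GRCm38; no source used here gives their roles or says whether molecular identifiers were collapsed. The gene minimum and mitochondrial limit left 11339 barcodes. Counts were summed per group, scaled to CPM, and compared after adding 5 counts; a call needed a 4-fold ratio and 100 summed counts. Genes named in a comparison are the 10 highest and 10 lowest ratios among called genes present in 20% of barcodes of the higher side, the list genes and Nr4a1 to Nr4a3. Of 435 list genes 429 were in the table. A hashtag was assigned at a log-likelihood gain of 3 over background. The members and lists were chosen with earlier results of these data known. Some genes that the rules name are not reported here. The ratio script was tested on simulated data. Python 3.11.15, numpy 2.4.6, scipy 1.17.1, pandas 2.3.3 and matplotlib 3.10.9 were used.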

Additional observations from a re-analysis of the deposited data

How the results depend on the processing

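Alternatives changed the gene limit, marker counts, mitochondrial limit, scaling, added counts, depth and reference. Leaving out the deepest members or those with any marker of other cells, the C1q-negative reference, no mitochondrial limit and mean counts per barcode were chosen after seeing the data. The neutrophil share was 1.45% without the mitochondrial limit. Genes higher than in macrophages numbered 42 on mean counts per barcode and 166 to 285 otherwise. Genes lower numbered 1081 when thinned, 136 with 50 counts added, 3471 without the mitochondrial limit and 10293 on mean counts per barcode, so the 245 higher and 1760 lower became 285 and 136 with 50 counts added. In that last setting 761 of the 1760 had a log2 ratio above 0, and 0 of the 245 had one below 0. In the Cxcl3 split the 22 genes higher became 13 with mitochondrial counts up to 10%, 14 on mean CPM per barcode, 11 without members holding other cells' genes or any of their markers, 2 when thinned, 3 with 50 counts added, 14 without the deepest members and 8 without the mitochondrial limit. The 19 lower became 6 without members holding other cells' genes, 12 without members holding any of their markers, 1 when thinned, 6 with 50 counts added, 9 without the deepest members and 41 without the mitochondrial limit. Egln3, Bcl2l1 and Ucp2 kept their direction in the 11 alternatives computed for them. These genes were picked for their ratios in this split and the alternatives share barcodes with it, so the kept direction gives no support. Bcl2l1 was short of a call in 4 (log2 ratio 1.96 at 500 genes, 1.95 at 10 marker counts, 1.16 with 50 counts added and 1.35 without the mitochondrial limit) and Ucp2 in 2 (-1.48 and -1.86 in the last 2 of these). With the C1q-negative reference the log2 ratios of Ccl8, C1qc and C1qa turned to 0.44, 1.16 and 0.72; this reference was chosen without C1q genes. The other causes were not tested. The Siglecf split could not be made with 2 positive barcodes. No paired analysis was possible because there is 1 capture and no test.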

Other observations

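Some genes on no list were high in the members and were picked after their values were seen. Slc7a11, the cystine importer that feeds glutathione synthesis, stood at 1257 CPM (1195 to 1321) in 62 of 112 members, with 28.3 in the macrophage or monocyte group and 4.19 in T cells. Sgms2, a sphingomyelin synthase, was at 458 CPM in 33 members with 15 in macrophages. Plaur, the urokinase receptor, was at 1884 CPM in 77 members with 257, and Lmnb1, lamin B1 of the nuclear envelope, at 1844 in 84 with 121. Inhba, the activin A subunit, had 47% of its counts in 1 member.

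Another set was picked in the same way. Olfr1033, an olfactory receptor gene, stood at 4619 CPM in 104 members, with 439 in macrophages and 823 in T cells, where 78.4% of barcodes held it. Wdr92 was at 5534 CPM in 99 members with 402 in macrophages, and the predicted gene Gm32856 at 3470.3 in 98 with 313.4. Across the 112 barcodes Olfr1033 went with Wdr92 (Pearson r 0.65, Spearman rho 0.71) and with Gm32856 (0.79 and 0.82), although the genes lie on chromosomes 2, 11 and 8. The sequences these reads came from were not analysed here.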
